A study of Mus musculus with 16 samples.

Results

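Granins and prohormone processing enzymes were measured by RNA-Seq in cells sorted from the mouse small intestine after vertical sleeve gastrectomy (VSG), an operation that removes most of the stomach, or after sham surgery. They are 10 genes taken by symbol, namely Chga, Chgb, Scg2, Scg3, Scg5, Pcsk1, Pcsk1n, Cpe, Pam and Vgf. The rule itself uses no measured value, but the genes were proposed with earlier results of these data known. All 10 were found among the 48440 genes listed in each of 3 tables, for the duodenum, the jejunum and the ileum. The comparison asks whether VSG changed the endocrine content of the sorted cells, read without the hormone genes themselves.

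The cells came from 7 female Lgr5-EGFP mice, in which EGFP is made from the intestinal stem cell gene Lgr5, and were GFP+ cells that had been cleared of immune, endothelial, apoptotic and dead cells. Before surgery, all of them, sham-operated mice included, received 60% high-fat food over 16 weeks. They were killed 4 weeks after surgery and 15 minutes after a liquid meal, and an age of 8 to 16 weeks was recorded for the animals in general, which the weeks of diet and recovery show cannot be the age at killing. There were 4 VSG and 2 sham libraries each for the duodenum and the jejunum (6 cm of each), made from 6 mice that gave both, and 2 VSG and 2 sham libraries for the ileum. VSG replicates 1 to 4 and sham replicates 1 and 2 are the same mice in every segment in which they appear, VSG replicate 5 was used in the ileum alone, and a number shared by VSG and sham does not mean a shared mouse. The values are counts normalized by the authors within each segment, so levels in different segments are set side by side here without a test.

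Granins are acidic proteins that fill the dense-core granules in which endocrine cells store their peptides, and chromogranin A (Chga) is a classical marker of such cells. Peptide hormones are made as longer precursors. Inside the granule, prohormone convertase 1/3 (Pcsk1) cuts the precursor at paired basic residues, carboxypeptidase E (Cpe) trims the basic residues left behind, and peptidylglycine alpha-amidating monooxygenase (Pam) amidates the end of peptides such as cholecystokinin. In the intestine these genes are typical of enteroendocrine cells, although Cpe and Pam are also made by other cells. In RNA from pooled cells, fewer endocrine cells and less RNA per endocrine cell cannot be told apart.

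Implied depth was 33.7 to 63.6 M reads per duodenal library, 22.2 to 57.8 M per jejunal library and 10.9 to 36.4 M per ileal library. Several libraries stood apart from their group. Jejunal VSG replicate 1 had 196951 normalized counts of Fabp6, the ileal bile acid-binding protein, where the other jejunal libraries had 15.8 to 313 and ileal libraries 29162 to 208801. Lgr5 was listed at 0 in the jejunal and the ileal library of sham replicate 1. The other libraries of those segments had 152 to 2053. In jejunal sham replicate 1, 1659 of the 12738 genes with a mean above 50 were listed at 0, against 1.65% to 6.70% of them in the other jejunal libraries, and the ileal share was 6.24% to 19.1%. A listed 0 can therefore be a lost transcript, and by counting error alone it allows up to 3 reads (1.76 to 6.21 normalized counts).

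All members were weighed per kilobase of their longest coding transcript in GENCODE M21, since longer transcripts collect more reads. Chgb was the most abundant member in the duodenum, at a mean of 3766 normalized counts per kilobase (range 3506 to 4431), and its range did not overlap that of Chga, at 1612 (1471 to 1837). Cpe followed at 762 and Scg2 at 217, and from Chga downwards each range overlapped the next. Pam (147), Pcsk1 (80.02), Scg5 (50.9), Scg3 (27.6), Vgf (18.7) and Pcsk1n (3.55) completed the duodenal order of levels per kilobase. Chgb, Chga and Cpe also led in the jejunum, at 3718, 1459 and 712 per kilobase, and in the ileum, at 756, 575 and 238. In these segments each member's range overlapped that of the next in the order. Chga, Chgb and Pam were above 0 in all 16 libraries. Scg2 and Cpe were each listed at 0 in 1 library and Pcsk1 in 2, whereas Scg3 was at 0 in 5 and Scg5, Pcsk1n and Vgf in 7 each.

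The start regions of these genes were searched for the cyclic AMP response element, the DNA site of CREB-family factors, as a feature that the choice of the genes did not use. RefSeq windows (GRCm38.p6, 250 bases before to 50 bases after the start) were matched for 8 of the 10 members, all except Cpe and Vgf. The element was written as TGACGTCA, which reads the same on both strands, and 3 of the 8 members held it in a window, against 2.03% of all 27025 genes (1.79% of all 32851 windows). Chga held the near form TGACGTAA, which was searched on both strands and was in a window of 0.581% of all genes. Of the 8 members, 1 held this form. Other near forms were not searched, so the share of genes with any near form was not taken. The 4 sites are shown on the strand of the gene, with the element or its near form in capitals and 11 bases on either side.
Chgb: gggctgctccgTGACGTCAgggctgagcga
Scg2: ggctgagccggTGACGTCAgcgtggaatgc
Pcsk1: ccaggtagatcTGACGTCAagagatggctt
Chga: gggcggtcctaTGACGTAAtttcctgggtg
The Chgb site lies at chr2:132781559-132781588 (plus strand), the Scg2 site at chr1:79440076-79440105 (minus strand), the Pcsk1 site at chr13:75089768-75089797 (plus strand) and the Chga site at chr12:102554886-102554915 (plus strand). The element begins 72, 68, 78 and 44 bases before the RefSeq start, in that order. The Chgb and Scg2 stretches overlap an annotated exon of their gene in GENCODE M21, which places the start further upstream, and the Pcsk1 and Chga stretches overlap none. These are matches of letters and were not tested for binding.

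Chga, on chromosome 12 (102554969 to 102565028, plus strand), hardly differed between duodenal libraries. It had 2769, 3419, 2929 and 3458 normalized counts after VSG (replicates 1 to 4), and 2827 and 2812 after sham surgery (replicates 1 and 2). The mean was 3144 ± 347 in VSG mice (SD, n = 4) and 2819 ± 10.5 in sham mice (SD, n = 2), and the groups overlapped. The fold of VSG over sham was 1.11 with a 95% confidence interval of 0.766 to 1.61 (limma on log2 of the normalized count + 1, adjusted p = 0.912, and 0.856 to 0.956 over the alternatives). No difference was detectable, and the interval leaves room for changes up to its ends. The jejunum was far more spread. There Chga had 1215, 3076, 4131 and 3251 in the VSG libraries, with 270.3 and 4544 in sham libraries. The sham libraries thus held both the lowest and the highest value of the segment, and the log2 fold change was 1.26 (adjusted p = 0.761 by limma). This direction rested on sham replicate 1, without which the log2 fold change was -0.77. Without sham replicate 2 it was 3.30, with an adjusted p of 0.0915 by limma against the lone sham library left. In the ileum Chga had 1085 and 1263 after VSG and 1190.2 and 791 after sham surgery, which overlap.

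Chgb, chromogranin B (chromosome 2, 132781278 to 132795079, plus strand), was as even as Chga in the duodenum. It had 9976, 9980.1, 12141 and 9691 normalized counts after VSG, and 10515 and 9607 after sham surgery. The fold was 1.04 (95% confidence interval 0.754 to 1.42, adjusted p = 0.969 by limma) and the groups overlapped. When each library was scaled to the same total, the 4 VSG libraries lay above both sham libraries, with a log2 fold change of 0.13 against 0.05. The share of all genes that part with this scaling was not taken. Jejunal Chgb had 1572, 15442, 20721 and 8259 after VSG and 4361 and 10767 after sham surgery. VSG replicate 1, the library with ileum-like Fabp6, was the lowest of the 6, and without it the log2 fold change was 1.01 against 0.23 with it (adjusted p = 0.774 and 0.945 by limma). Leaving out sham replicate 1, VSG replicate 2 or VSG replicate 3 turned the direction, to -0.42, -0.09 and -0.23.

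The ileum gave the widest gap for Chgb. The VSG libraries had 2904 and 3672 normalized counts and the sham libraries had 738 and 971, so that the groups did not overlap. The fold was 3.85 (95% confidence interval 1.48 to 10.005) with an unadjusted p of 0.0141, but the adjusted p was 0.736 over all genes tested with limma and ranged from 0.284 to 0.815 over the alternatives. The exact permutation test gave p = 0.333 (two-sided), the smallest that 2 libraries against 2 can give. Every alternative, each library left out in turn included, kept VSG higher. Across segments, Chgb was at 200.3 to 259 CPM in the duodenum, 47.0 to 604 CPM in the jejunum and 29.5 to 167 CPM in the ileum. Here CPM is the normalized count rescaled to the same total in every library, which replaces the authors' scaling.

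Scg2, secretogranin II (chromosome 1, 79434669 to 79440120, minus strand), is the precursor of secretoneurin. Duodenal values were 632, 341, 782 and 463 after VSG and 653 and 407 after sham surgery, with a fold of 1.02 (95% confidence interval 0.437 to 2.41). In the jejunum, all 4 VSG libraries (450.4, 566, 415 and 308) lay above both sham libraries (121 and 209). The jejunal fold was 2.66 (95% confidence interval 0.725 to 9.73) and was not past the threshold (adjusted p = 0.760 by limma). Its exact permutation p was 0.133 (two-sided), the smallest that 4 libraries against 2 can give in this test. Each alternative kept this direction, with a log2 fold change of 1.02 without sham replicate 1 and 1.80 without sham replicate 2 (adjusted p = 0.162 by limma). The ileum had 479 and 921 after VSG and 0 and 262 after sham surgery, again without overlap (adjusted p = 0.736 by limma).

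Scg3 and Vgf were scarce. Secretogranin III (Scg3) binds chromogranin A at the granule membrane, and Vgf is a granin-like precursor of several peptides. Scg3 had 0, 37.8, 249 and 19.5 in duodenal libraries after VSG and 87.8 and 0 after sham surgery. Its jejunal values were 0, 237, 224 and 207 after VSG and 187 and 25.1 after sham surgery, and the sign of its difference there turned from -0.28 to 0.35 on the log2 scale with a pseudocount of 10 in place of 1. In the ileum Scg3 was at 50.2 and 136 after VSG and was listed at 0 in both sham libraries, so no fold is given. Its ileal mean of 46.5 was under the minimum of 50 set for a call, and its adjusted p by limma was 0.736, with 0.000588 to 0.815 over the alternatives. The lowest of these came without VSG replicate 5, which leaves 1 VSG library against 2 listed at 0. Vgf stayed at or below 169.8 in every library. It was listed at 0 in 2 of 6 duodenal, 3 of 6 jejunal and 2 of 4 ileal libraries, and the groups overlapped in each segment.

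**Figure D1:**
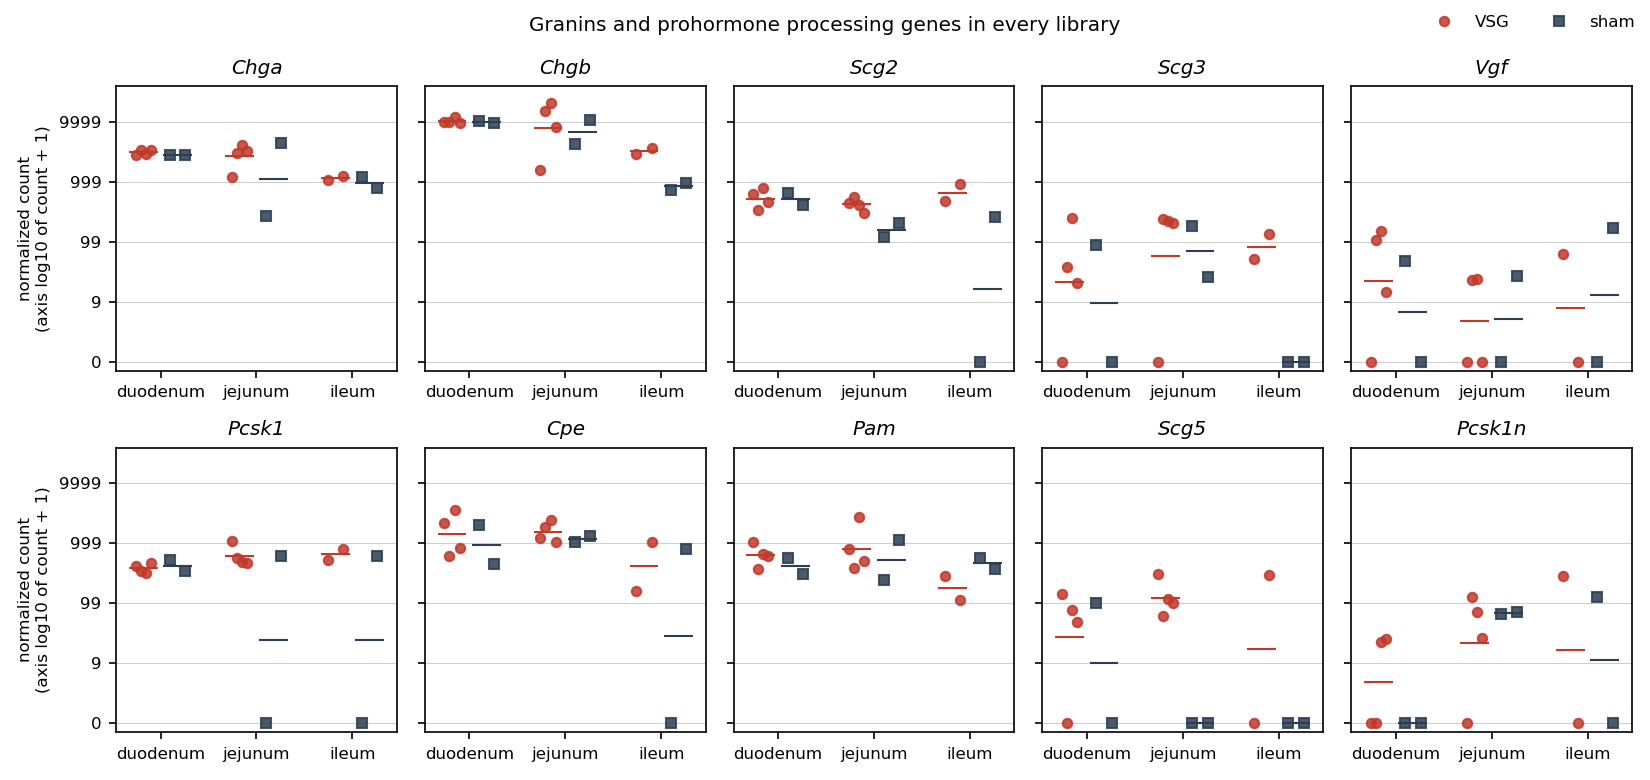
Normalized count of each of the 10 members (vertical axis, log10 of the count + 1, labelled in counts) in every VSG (circles) and sham (squares) library of the duodenum, jejunum and ileum. Horizontal lines are group means of the log values. Duodenal Chga and Chgb lie within 2769 to 3458 and 9607 to 12141, whereas jejunal Chga runs from 270.3 to 4544.

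Of the processing enzymes, Pcsk1 (chromosome 13, 75089826 to 75134861, plus strand) is the convertase that releases GLP-1 from proglucagon in intestinal L cells. It had 414, 341, 326 and 467 normalized counts in duodenal libraries after VSG and 529.5 and 343 after sham surgery, with a fold of 0.899 (95% confidence interval 0.373 to 2.16). In the jejunum it had 1092, 567, 481 and 472 after VSG, and 0 and 612 after sham surgery. The listed 0 of sham replicate 1 set the difference. With it the log2 fold change was 4.63 (unadjusted p = 0.0490, adjusted p = 0.760 by limma), and without it the difference was -0.00017. Against sham replicate 1 alone the log2 fold change was 9.26 and the adjusted p 0.0222 by limma. Ileal Pcsk1 was 534 and 804 after VSG and 0 and 607 after sham surgery, where sham replicate 1 was again the library listed at 0.

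Cpe (chromosome 8, 64592542 to 64693054, minus strand) varied more between duodenal libraries than Chga or Chgb. Its duodenal values were 2159, 626, 3550.3 and 855 after VSG and 2041 and 448 after sham surgery, and the groups overlapped (fold 1.49, 95% confidence interval 0.440 to 5.03). Jejunal Cpe was tighter, at 1219, 1885, 2469 and 1071 after VSG and 1055 and 1349 after sham surgery. The ileum had 162 and 1047 after VSG and 0 and 804 after sham surgery. In none of the segments did the groups of Cpe part.

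Pam (chromosome 1, 97795114 to 98095646, minus strand) had 1072, 371, 674 and 609 in duodenal libraries after VSG and 571 and 311 after sham surgery. Its jejunal values were 818, 383, 2756 and 512 after VSG and 245 and 1128 after sham surgery. The groups overlapped in both segments, with log2 fold changes of 0.59 and 0.63 (adjusted p = 0.882 and 0.850 by limma). Only in the ileum did the groups part, and with VSG below sham, at 284 and 114 against 579 and 374 (log2 fold change -1.37, adjusted p = 0.736 by limma, exact permutation p = 0.333, two-sided). Pam was the only member with all its VSG libraries below the sham libraries in any segment. 

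Scg5 and Pcsk1n encode small partners of the convertases. Scg5 encodes 7B2, the chaperone of prohormone convertase 2, and Pcsk1n encodes proSAAS, an inhibitor of prohormone convertase 1/3. Jejunal Scg5 had 304, 61.1, 117 and 102 normalized counts after VSG and was listed at 0 in both sham libraries, so that the groups did not overlap and no fold is given. Its unadjusted p was 0.00823 and its adjusted p 0.760 with limma, and the exact permutation p was 0.133 (two-sided). Scg5 was the member that a limma fit without a variance trend called in the jejunum (adjusted p = 0.0355), and that fit called 61 of 15857 genes. Its highest jejunal value, 304, was in VSG replicate 1, the library with ileum-like Fabp6. In the duodenum Scg5 had 141, 0, 77.4 and 48.2 after VSG and 103 and 0 after sham surgery, and in the ileum it was listed above 0 in VSG replicate 5 alone, at 302. Prohormone convertase 2 itself (Pcsk2) was listed at 0 in all 16 libraries. Pcsk1n had at most 24.6 in the duodenum, where its mean was under the minimum of 10 for a test. It reached 126 in the jejunum and 289 in the ileum, with overlapping groups.

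Of the 9 members tested in the duodenum, 0 were called at the study's thresholds (p under 0.05, adjusted p under 0.2, absolute log2 fold change above 0.5 and mean above 50), and 0.0237% of all 16867 genes tested were. None of the 9 had an unadjusted p under 0.05 by limma, which 6.27% of all genes had. Of the 9 tested members, 8 had a higher mean log2 level after VSG, against 50.7% of genes tested. These 8 include Chgb and Scg2, with log2 fold changes of 0.05 and 0.04. Over all 10 members the count was 9, with the untested Pcsk1n, which was listed at 0 in both sham libraries. The median difference over the 10 was 0.58, against 0.01 over all genes tested. The count over all 10 rested on sham replicate 2, the lowest library for 7 members (ties at 0 included), without which 3 of 10 were higher and the median was -0.39. Without sham replicate 1 the count was 10 of 10, and without VSG replicate 3 it was 6 of 10. In no member did the duodenal groups part in either direction, where 6.44% of genes had every VSG library above and 8.01% every VSG library below both sham libraries. 

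In the jejunum, 0 of 10 members were called, against 0.0126% of 15857 genes. Unadjusted p-values under 0.05 by limma were found for 2 members (Scg5 and Pcsk1) and for 6.04% of genes, and for 1 member when any VSG library or sham replicate 1 was left out. All VSG libraries were higher than both sham libraries for 2 members (Scg2 and Scg5) and for 6.59% of genes, and lower for 0 members and 6.21% of genes. The mean log2 level was higher after VSG for 7 of 10 members and 55.0% of genes, with medians of 0.51 and 0.11. Sham replicate 1 had the lowest value of 7 members (ties at 0 included). Without it 4 of 10 were higher and the median was -0.21. Without VSG replicate 1 the count was 9 of 10 and the median 1.20. Against sham replicate 1 alone, 4 members were called by limma (Chga, Scg2, Scg5 and Pcsk1), but so were 2710 genes, where the fit with both sham libraries called 2.

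In the ileum, 0 of 10 members and 0% of 13853 genes were called, and an unadjusted p under 0.05 by limma was found for 1 member (Chgb) and 3.28% of genes. Chgb, Scg2 and Scg3 had both VSG libraries above both sham libraries, that is 3 of 10 members against 17.0% of genes, and Pam had both below, 1 of 10 against 11.6%. The mean log2 level was higher after VSG for 8 of 10 members and 57.0% of genes, with medians of 2.91 and 0.24. Some lists of other cell types had ileal medians of the same size. They were 3.74 for Paneth markers (8 of 8 higher), 3.01 for stem cell markers (6 of 7 higher, 5 with both VSG libraries above both sham libraries) and 2.78 for tuft markers (6 of 8 higher). Medians were lower for the stroma (1.45), goblet (0.54), enterocyte (-0.22), stomach (-0.39) and neuron and glia (-1.91) lists. They were higher for the immune (4.14, 3 genes tested) and pancreas (7.20, 1 gene tested) lists. The part of other cells in the members' values was not tested. The members' median moved with the low values. It was 2.09 with a pseudocount of 10 and 0.95 without sham replicate 1, in which 6 of 10 members were listed at 0. With VSG replicate 4 left out, 7 members had the remaining VSG library above both sham libraries, and with sham replicate 2 left out, 5 had both VSG libraries above the remaining one. Each of these leaves 1 library in a group, so that groups part more easily. The share of all genes was not taken there.

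**Figure D2:**
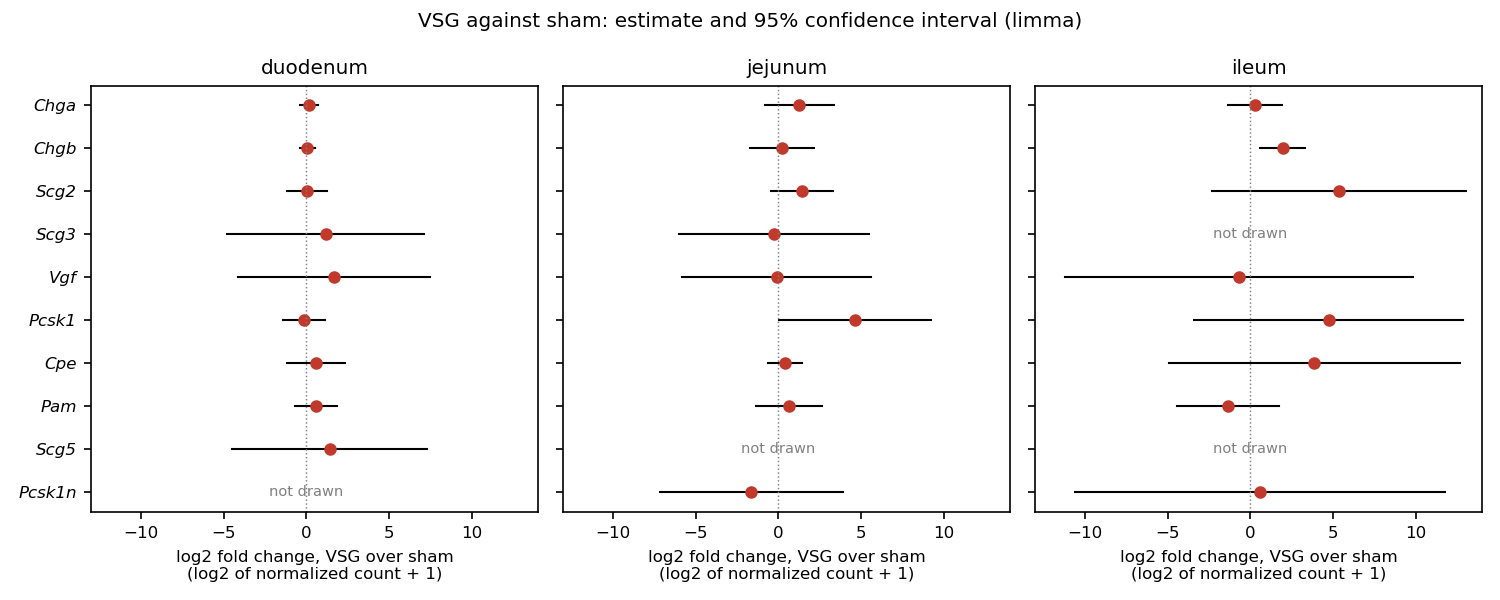
Log2 fold change of VSG over sham (horizontal axis, on log2 of the normalized count + 1) for each member in the 3 segments, as points with 95% confidence intervals from limma. Members are not drawn where they were not tested or where a whole group was listed at 0; duodenal Chga and Chgb have the shortest intervals (-0.39 to 0.69 and -0.41 to 0.51), and among those drawn the intervals of jejunal Pcsk1 and ileal Chgb lie above 0.

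The same 6 mice gave duodenal and jejunal libraries, so the jejunal minus duodenal log2 level of each mouse was compared between surgeries. For Chga it was -1.19, -0.15, 0.50 and -0.09 in VSG mice 1 to 4, and -3.38 and 0.69 in the sham mice. The sham mice again held both extremes, and the difference was 1.11 (adjusted p = 0.963 by limma). For Scg2 it was -0.49, 0.73, -0.91 and -0.59 in the VSG mice and -2.42 and -0.96 in the sham mice, so that every VSG mouse lay above both sham mice (difference 1.37, 95% confidence interval -1.01 to 3.76, adjusted p = 0.960 by limma, exact permutation p = 0.133, two-sided). The share of all genes in which the mice parted in this way was not taken. For Pcsk1 the VSG mice had 1.40, 0.73, 0.56 and 0.02 and the sham mice -9.05 and 0.84, the former resting on the jejunal 0 of sham replicate 1. None of the 9 members tested had an adjusted p under 0.2 with limma, nor did any of the 14718 genes (0%), and 0 members and 4.10% of genes had an unadjusted p under 0.05. Thus a difference between jejunum and duodenum in the response to VSG was not detectable with these mice, in which leaving out sham mouse 1 turned the differences of Chga (to -0.93) and Pcsk1 (to -0.16), and leaving out sham mouse 2 gave Pcsk1 a difference of 9.73 (adjusted p = 0.0299 by limma). 

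**Figure D3:**
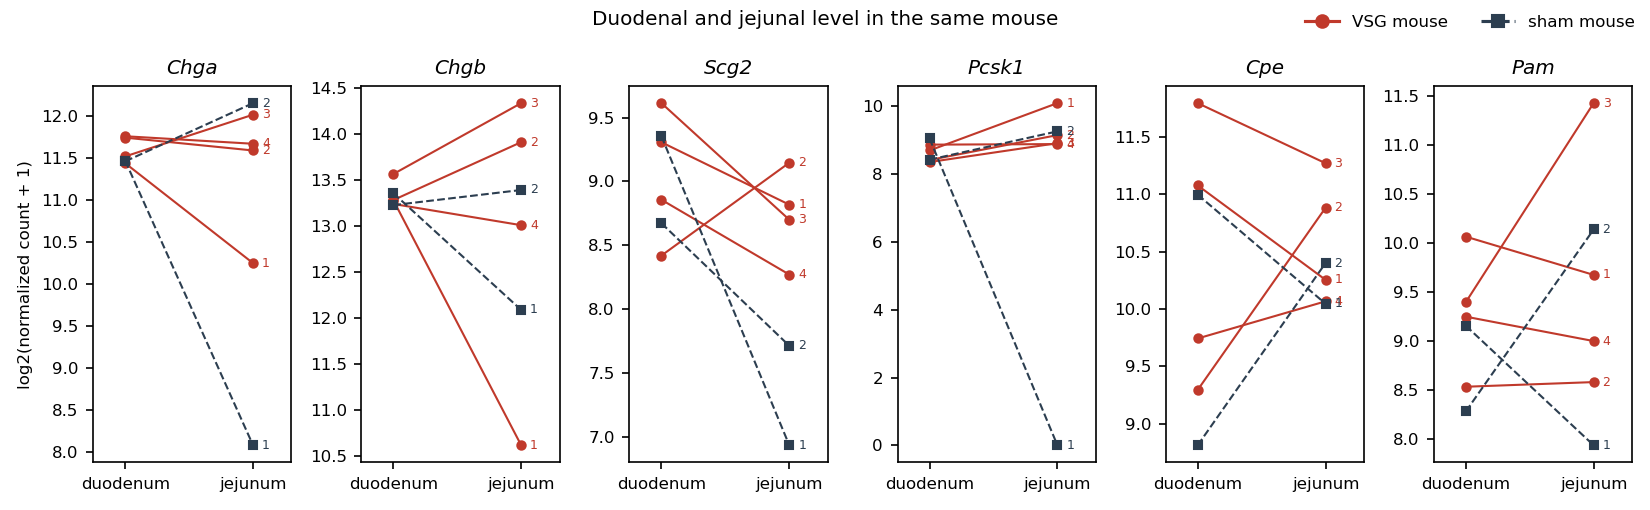
Log2 of the normalized count + 1 (vertical axis, scaled for each gene) of 6 members in the duodenum and jejunum of the same mouse, with VSG mice as solid lines and sham mice as dashed lines and the replicate number at the jejunal end. The tables of the 2 segments were normalized separately; from duodenum to jejunum, Chga of sham mouse 1 differs by -3.38 and its Pcsk1 by -9.05, while Pcsk1 of the VSG mice differs by 0.02 to 1.40.

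The ratio of Chgb to Chga within a library does not depend on how libraries were scaled to each other. It lay between 2.80 and 4.15 in the 6 duodenal libraries, with both sham libraries (3.72 and 3.42) inside the VSG range. In the jejunum the ratio was 1.29, 5.02, 5.02 and 2.54 after VSG and 16.1 and 2.37 after sham surgery. The 2 libraries that stood apart thus had the lowest and the highest ratio, 1.29 in VSG replicate 1 and 16.1 in sham replicate 1. In the ileum it was 2.68 and 2.91 after VSG and 0.620 and 1.23 after sham surgery, without overlap. The exact permutation p of the log2 ratio was 0.667, 0.533 and 0.333 in the 3 segments (two-sided), the last being the smallest possible.

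Hormone genes were read in the same libraries. In the duodenum Gip (the incretin of K cells) had 13341, 7768, 22890 and 7459 normalized counts after VSG and 17121 and 5820 after sham surgery, highest in VSG replicate 3 and next in sham replicate 1, as were Chgb, Scg2 and Scg3. In jejunal sham replicate 1, with 270.3 counts of Chga and none of Pcsk1, Gip stood at 15709, against 12496 in sham replicate 2. In jejunal VSG replicate 1, with the lowest Chgb, Gip was at 187, Cck at 217 and Gcg, the proglucagon gene, at 7462, against 714 to 2364 for Gcg in the other VSG libraries. The 6 granin-type members (Chga, Chgb, Scg2, Scg3, Scg5 and Vgf) summed to 106 CPM in VSG replicate 1 and 105 in sham replicate 1, against 358 to 747 in the other jejunal libraries. In the duodenum this sum was 285 to 348 CPM after VSG and 267 and 275 after sham surgery, and in the ileum 208 and 286 after VSG and 77.1 and 97.5 after sham surgery. On the deposited scale, without division by the library's total, the duodenal groups overlapped, at 13518 to 16328 after VSG and 14232 and 12826 after sham surgery. In the ileum, 17.0% of single genes had both VSG libraries above both sham libraries on that scale. The sum was mostly Chgb and Chga, with duodenal means of 10318 and 3036 normalized counts against 547 for Scg2. Their ileal means were 2071 and 1082 against 416 for Scg2. It thus largely repeats the values of these 2 genes.

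The genes most like Chga were sought among 12336 genes with a mean above 50 in the duodenum and the jejunum, by the smaller of their Pearson correlations with Chga over the 6 duodenal and the 6 jejunal libraries. They were Sec61a2 (r = 0.931 and 0.915), Hsp90ab1 (0.939 and 0.908), St5 (0.905 and 0.929), Alg8 (0.881 and 0.972) and Agtrap (0.877 and 0.910). Of the other members, 7 were ranked, since Pcsk1n and Vgf were under that mean. Scg3 came closest of the 7, at rank 2685, and Chgb had r = -0.24 in the duodenum and 0.639 in the jejunum. These correlations are descriptions over 6 libraries that share their mice, and the jejunal ones also carry the low Chga of sham replicate 1.

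The rest of the prohormone pathway was read from lists of related genes, and 0 of their members were called by limma in any segment. Of the other processing enzymes (convertases, carboxypeptidases and related peptidases), 11 of 12 were tested in the duodenum. Unadjusted p-values under 0.05 by limma were found for 0 higher and 2 lower, which were Pcsk5 (4099, 6618, 7804 and 6538 against 10725 and 8950.4, adjusted p = 0.738) and Furin (4976, 2162, 1701 and 2409 against 3783 and 7652, adjusted p = 0.761). None of 10 was past this threshold in the jejunum. In the ileum it was passed by Cpd (4906 and 10225 against 1797 and 1694, higher) and Furin (722 and 384 against 1481 and 10995, lower). Rnpep, an aminopeptidase, was the other leading enzyme of the list and had a duodenal log2 fold change of 0.01.

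For the granule machinery (receptors, calcium sensors, SNARE proteins and Rab GTPases of regulated secretion), 2 of 23 genes were higher and 2 lower at an unadjusted p under 0.05 by limma in the duodenum, and 2 were higher and 0 lower in the jejunum. Rph3al, a Rab effector of exocytosis, was among the higher genes in both. It had 2130, 954, 1334 and 1760 after VSG and 785 and 592 after sham surgery in the duodenum (adjusted p = 0.663), and 1315, 1692, 1107 and 935 against 168 and 391 in the jejunum (adjusted p = 0.760, both by limma). Synaptophysin (Syp) was the other higher gene in the duodenum, while Ptprn and Syt14 were the lower genes in the duodenum, at 0 in all 4 and in 3 of 4 VSG libraries. The most abundant genes of the list, Rab3d and Vamp2, had log2 fold changes of 0.53 and 0.28 in the duodenum and 1.29 and 0.56 in the jejunum. The list's median was 0.34 in the duodenum and 1.27 in the jejunum, against 0.01 and 0.11 over all genes. In the ileum 1 of 20 tested genes (Ptprn2) was higher and 0 lower.

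Of 18 enteroendocrine transcription factors tested in the duodenum, 1 was higher and 0 lower at an unadjusted p under 0.05 by limma. This was Nkx2-2, with 313, 1482, 719 and 417 after VSG and 96.7 and 99.7 after sham surgery (adjusted p = 0.522 by limma). None of 19 passed in the jejunum and 1 of 11 (Rfx6, higher) in the ileum. Neurog3, which starts the endocrine fate, had 714, 387, 725 and 700.3 in duodenal libraries after VSG and 727 and 156 after sham surgery. Insm1, a factor of endocrine differentiation, ranged from 328 to 813 in the duodenum and from 149 to 1262 in the jejunum, with its jejunal minimum in sham replicate 1. The other abundant factors, St18 and Rfx3, ranged from 64.4 to 809 and from 70.6 to 2596 in the duodenum, with overlapping groups. Over the list, 13 of 18 factors were higher after VSG in the duodenum and 13 of 19 in the jejunum, with medians of 0.32 and 1.00. Of the gut hormone genes, 0 of 10 passed in the duodenum, 1 of 11 in the jejunum (Pyy, higher, at 1507, 244, 115 and 32.2 against 0 and 9.68) and 0 of 9 in the ileum. After VSG, 7, 3 and 7 of these hormone genes had a higher mean log2 level in the 3 segments, and the list's medians were 0.18, -0.06 and 0.48. The genes of these paragraphs other than Rnpep, Pcsk5, Rab3d, Vamp2, Neurog3, Insm1, St18, Rfx3, Gip, Gcg and Cck were chosen for mention after their values were seen.

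Markers of other cells were read in the same libraries, and their part in the members' values was not tested. Of the stem cell markers, Olfm4 was at 37596 to 79817 in the duodenum and 7345 to 33820 in the jejunum. None of the 8 stem cell markers had an unadjusted p under 0.05 by limma in the duodenum or the jejunum, and 7 and 8 of them were higher after VSG, with medians of 0.23 and 0.97. In the ileum 1 of 7 tested (Olfm4, at 7641 and 5352 against 795 and 2647) was past that threshold, higher after VSG. Enterocyte markers summed to 0.667% to 1.28% of normalized counts in duodenal libraries after VSG and 1.44% and 1.93% after sham surgery, and 5 of 8 were lower and 0 higher after VSG at an unadjusted p under 0.05 by limma. Tuft cell markers went the other way in the duodenum, at 0.0367% to 0.0787% after VSG and 0.0116% and 0.0259% after sham surgery, with 6 of 8 higher and 0 lower at that threshold. In the jejunum 4 of 8 tuft, 5 of 8 goblet and 3 of 8 Paneth markers were higher after VSG at that threshold and 2 of 8 enterocyte markers were lower. In jejunal sham replicate 1, the low library for Chga and Pcsk1, enterocyte markers held 4.13% of counts against 1.02% to 2.34% in the other jejunal libraries, and stem cell markers 0.0303% against 0.133% to 0.183%. Paneth markers held 0.0692% there against 0.273% to 0.770%, goblet markers 0.227% against 0.607% to 1.15%, and tuft markers 0.00306% against 0.0202% to 0.0723%.

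**Figure D4:**
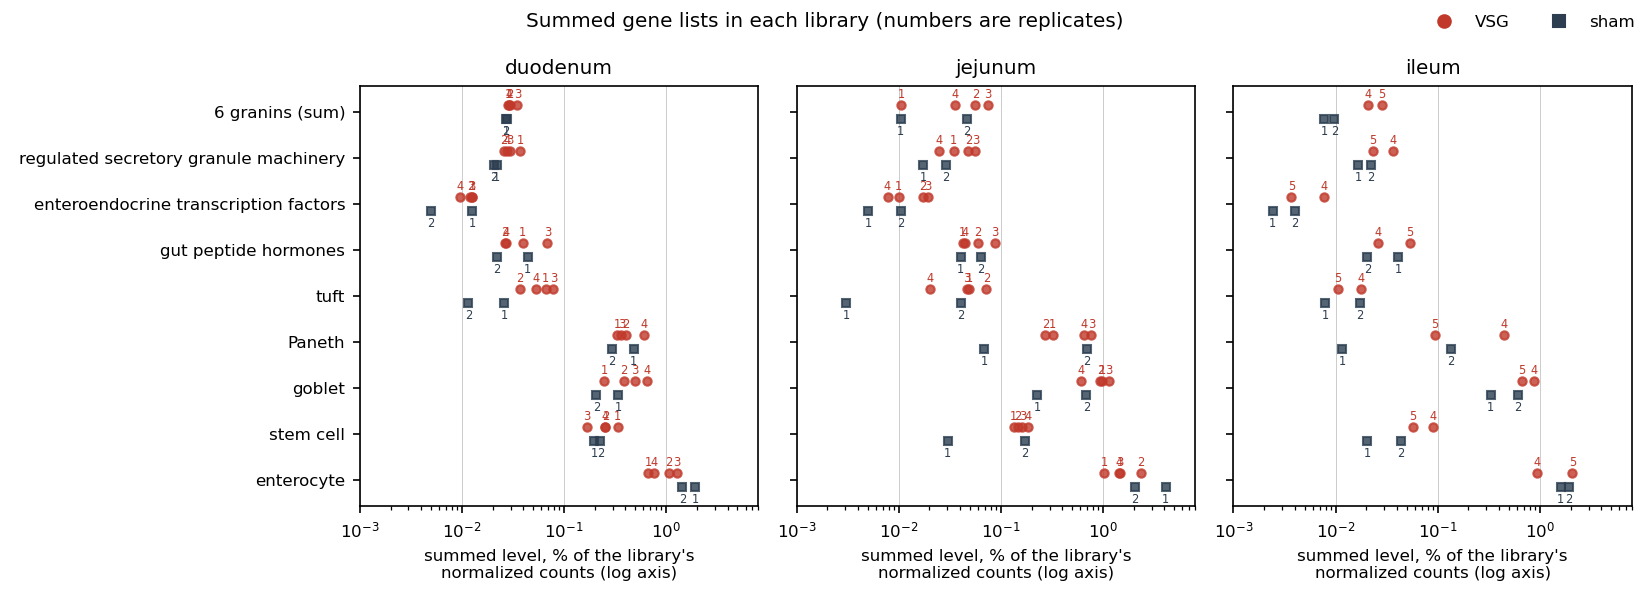
Summed level of the 6 granin-type members and of 8 gene lists as a percentage of each library's normalized counts (horizontal axis, log scale) in the 3 segments, with VSG libraries as circles and sham libraries as squares and replicate numbers beside them. Jejunal sham replicate 1 is lowest for stem cell (0.0303%), Paneth (0.0692%), goblet (0.227%) and tuft (0.00306%) lists and highest for the enterocyte list (4.13%).

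Granins and processing enzymes are also made by neurons and islet cells, and the defining genes of those cells were at or near 0. Vip, Prph and Sox10 were listed at 0 in all 16 libraries, as were Ins1 and Ins2. The whole list of enteric neuron and glia genes summed to 338 to 527 normalized counts in duodenal libraries after VSG and 353 and 391 after sham surgery, to 172 to 521 and 233 and 320 in the jejunum, and to 177 and 321 against 712 and 106 in the ileum. Of its 12 genes, 3 were at 0 in every duodenal library, 6 in every jejunal library and 7 in every ileal library. The islet and exocrine pancreas list reached 10539 in duodenal VSG replicate 3, the highest library for Chgb, Scg2, Scg3, Cpe and Vgf, against 1438 to 2567 in the other duodenal libraries. Of its leading genes, Ctrb1 (2686) and Cela1 (1323), which encode digestive enzymes, were highest in that library. Pdx1 was not, at 1184 there and 2060 in sham replicate 2. The list summed to 144 to 448 in the jejunum and to at most 161 in the ileum. Stomach genes summed to 213 to 2777 in duodenal libraries after VSG and 498 and 3761 after sham surgery, and to at most 456 in the other segments. Immune markers summed to 506 to 3155 in duodenal libraries after VSG and 181 and 410.3 after sham surgery, and stromal markers to 41.6 to 136 and 306 and 2356. Cd3e, a T cell gene, was listed at 0 in all libraries except 1 from the jejunum.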

How the data were processed

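The authors sequenced polyA RNA of sorted GFP+ cells (single-end reads, directional libraries), aligned it to mm10 with STAR 2.5.3a and quantified it with Salmon 0.6.0. The deposited signal is a count per gene, normalized by the authors with DESeq2 for each segment on its own. For most genes the values could not be turned back into whole reads, and no count model was used. The authors' fold changes, standard errors and p-values of VSG against sham were also deposited and were not used. Depth was implied by dividing each library's total by its commonest low value, taken as the worth of a read.

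Each segment was fitted by itself with limma 3.58.1 (R 4.3.3, with a variance trend) on log2(normalized count + 1). Genes needed a mean above 10, and Benjamini-Hochberg adjustment ran over all genes tested. Where a library was listed at 0, the size of a log2 change depends on the pseudocount. That of jejunal Pcsk1 was 5.13, 4.63 and 2.98 with pseudocounts of 0.5, 1 and 10, so such sizes are not lower bounds. Segment differences were taken within each mouse (jejunum minus duodenum). For single values the test was an exact permutation test (15 splits for 4 against 2, 6 for 2 against 2). P-values measure the spread between the numbered mice. The limma fit of VSG against sham was tested on simulated data, and the other steps were not. Gene positions are from GENCODE M21 (GRCm38).

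Named genes are the 10 members, the 2 most abundant genes of each other list in the duodenum and in the jejunum, any called gene of a list, and the 5 genes most like Chga. Other list genes were named after their values were seen or as defining genes of a cell type. The members and lists were chosen with earlier results of these data known. Alternatives were pseudocounts of 0.5 and 10, a mean above 50 or no filter, quantile normalization, equal library totals, limma with no trend, an adjusted p under 0.05, the replicate block, and each library left out in turn. Tables and figures were made in Python 3.11.15 (pandas 2.3.3, numpy 2.4.6, matplotlib 3.10.9, scipy 1.17.1). Some genes of the lists are not reported here.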

Additional observations from a re-analysis of the deposited data

Results flagged for a closer look

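Among the 20 groups of 4 VSG libraries tested (10 members in the duodenum and the jejunum), 2 held a library whose distance from its nearest neighbour, as a share of the group's range on the log2 scale, was above Dixon's 95% critical value of 0.829. Chance flags about 1 group in 20. Duodenal VSG replicate 3 had 12141 normalized counts of Chgb, against 9691 to 9980.1 in the other VSG libraries (share 0.870), and without it the log2 fold change of Chgb was -0.02. Jejunal VSG replicate 1 was listed at 0 for Scg3, against 207 to 237 in the other VSG libraries (share 0.975), and without it the log2 fold change of Scg3 was 1.67.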

How the results depend on the processing

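No alternative called a member in the duodenum. In the jejunum, limma without trend called 1 (Scg5), and in leave-one-out fits 0 to 4 members were called there and 0 to 1 in the ileum. Leaving out a library can leave 1 library in a group, which is then assumed to vary like the others. Of the 29 member fold changes tested, 12 kept their sign under every alternative. The cause of a changed value was not tested.

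Genes called in the duodenum (4 in the main analysis) numbered 0 with a pseudocount of 0.5, a mean above 50, no filter, equal totals, an adjusted p under 0.05 and the replicate block, 10 with a pseudocount of 10, 43 without trend and 0 to 259 with a library left out. In the jejunum (2) they numbered 61 without trend, 1 with an adjusted p under 0.05, 0 with the replicate block and 1 to 2710 with a library left out. In the ileum (0) they numbered 3 with a pseudocount of 10, 463 without trend and 0 to 631 with a library left out. Genes with a segment difference (0) numbered 10 without trend and 0 to 815 with a mouse left out.

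Leaving out libraries, the number of members higher after VSG ran from 3 to 10 (duodenum) and 4 to 9 (jejunum). The number whose VSG libraries all lay above the sham libraries ran from 0 to 3, 2 to 6 and 4 to 7 in the 3 segments, and was 1 in the duodenum with equal totals. The share of all genes was not taken for these counts, and groups part more easily when fewer libraries are left. The members' median ran from -0.39 to 1.35, -0.21 to 1.77 and 0.95 to 3.57, and was 2.09 in the ileum with a pseudocount of 10.

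The replicate block, in which the numbers name different VSG and sham mice, left 5 members higher in the duodenum and turned Chgb to -0.010, Scg2 to -0.15 and Scg3 to -0.60 there and Chgb to -0.48 in the jejunum, and changed no member's call. Same-numbered libraries did not deviate together (correlations of -0.05 and -0.03 among duodenal and 0.05 and 0.01 among jejunal libraries), and the ileum shares no number. Quantile normalization turned duodenal Scg2 to -0.00087 and jejunal Scg3 to 0.48, and a pseudocount of 10 turned jejunal Scg3 to 0.35.

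Member log2 fold changes that changed sign with a library left out ranged as follows. In the duodenum, Chgb ran from -0.024 to 0.11, Scg2 from -0.30 to 0.38, Scg3 from -2.07 to 4.40, Scg5 from -1.93 to 4.76, Pcsk1 from -0.47 to 0.16, Cpe from -0.52 to 1.67 and Vgf from -1.10 to 4.47. In the jejunum, Chga ran from -0.77 to 3.30, Chgb from -0.42 to 1.01, Scg3 from -1.70 to 1.67, Pcsk1 from -0.00017 to 9.26, Pam from -0.47 to 1.73 and Vgf from -2.48 to 0.66. In the ileum, Chga ran from -0.024 to 0.57, Pcsk1n from -3.49 to 4.69, Cpe from -0.96 to 8.69 and Vgf from -4.42 to 3.00. Among segment differences, Chga ran from -0.93 to 3.15, Chgb from -0.54 to 0.94, Scg3 from -3.25 to 0.37, Pcsk1 from -0.16 to 9.73, Cpe from -1.45 to 1.09 and Pam from -1.50 to 1.58.

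With 2 sham mice, the intervals of members listed at 0 in some libraries spanned more than a 100-fold range. By what 1 read was worth, a listed 0 allows up to 1.76 to 6.21 normalized counts, the most in ileal sham replicate 2.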
